A study of Mus musculus with 2 samples.

Results

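STAT5 binding was examined at 10 genes of the transforming growth factor beta (TGF-beta) pathway, chosen by name and grouped by role. They were the ligand gene Tgfb1, the receptor genes Tgfbr1, Tgfbr2 and Tgfbr3, the SMAD genes Smad2, Smad3, Smad4 and Smad7, and the co-repressor genes Ski and Skil. The deposited table of genes near STAT5 regions held 7 of these 10 among its 4934 genes. Tgfbr1, Smad2 and Smad4 were not listed and count as having no assigned region. STAT5 is a DNA-binding protein that IL-2 signalling switches on. Its binding was mapped by ChIP-seq, the sequencing of DNA recovered with an antibody, here an anti-STAT5 one. The cells were effector CD8 T cells of the OT-I line, whose transgenic T cell receptor recognises the SIINFEKL peptide, from C57BL/6 mice. They had been adoptively transferred, primed in vivo by that peptide and by agonists of CD134 and CD137, and sorted from spleens 4 days later. The IL-2 group was 1 library of such cells given IL-2 in vitro at 0.5 µg/ml for 1 hour, and the control group was 1 library of the same kind of cells without IL-2. Both groups therefore share the costimulation, and neither has replicates, so no difference between them could be tested.

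TGF-beta1 is secreted in a latent form and, once released, binds TGFBR2, which recruits and phosphorylates TGFBR1. TGFBR1 then phosphorylates SMAD2 and SMAD3, which join SMAD4 and act on genes in the nucleus, while SMAD7 blocks the receptor and SKI and SKIL bind SMAD proteins and repress their targets. In CD8 T cells the pathway is known for restraining proliferation and cytotoxic function and for promoting residence in tissues.

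The regions near the 7 listed genes numbered 20, all called in the IL-2 library, and none of the 7 genes had a region called in the control library. Values are peak heights in signal units. For each gene the table gives 1 mean per library over the assigned regions that were called in the IL-2 library, and the highest peak. Over all 4934 genes the median height was 20.75 in the IL-2 library (interquartile range 15 to 33) and 5 in the control library (4 to 5.8). A gene was listed because of a region near it, and control regions were called near only 12 genes of the table, so the heights were selected in favour of the IL-2 library. The sources used here give neither the depth of the libraries nor how they were scaled. ChIP-seq does not measure expression, so the labelled cell type could not be checked by transcripts. Regions were listed near 7 of 8 CD8 T cell marker genes, 3 of 4 regulatory T cell genes (Foxp3, Ctla4 and Ikzf2), 1 of 6 B cell genes and 2 of 6 myeloid genes, where the share over all protein-coding RefSeq genes was 19.1%. The median log2 ratio was 1.80 for the regulatory T cell genes and 1.26 for the CD8 T cell genes, and these lists show where regions lie, not which cells were present.

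A start lay within 1 kb of 4 of the 20 regions, and these 4 belonged to different genes. The sequences of the 250 bases before the start are shown for Tgfb1, Tgfbr2 and Ski, whose start-proximal regions lay 326 bases inside, 643 bases inside and 761 bases upstream of the start, and so outside the bases shown. They come from RefSeq on GRCm38.p6 and are written along the gene's own strand. Capitals mark TTCC or GGAA, the outer letters of the preferred STAT5 site, whose general form is TTCNNNGAA.
Tgfb1, chr7:25686752-25687001, plus strand: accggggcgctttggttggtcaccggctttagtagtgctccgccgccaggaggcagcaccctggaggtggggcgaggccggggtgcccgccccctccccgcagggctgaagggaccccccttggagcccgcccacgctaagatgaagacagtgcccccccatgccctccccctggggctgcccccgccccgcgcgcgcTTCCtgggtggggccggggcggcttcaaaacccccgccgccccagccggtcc
Tgfbr2, chr9:116175364-116175613, minus strand: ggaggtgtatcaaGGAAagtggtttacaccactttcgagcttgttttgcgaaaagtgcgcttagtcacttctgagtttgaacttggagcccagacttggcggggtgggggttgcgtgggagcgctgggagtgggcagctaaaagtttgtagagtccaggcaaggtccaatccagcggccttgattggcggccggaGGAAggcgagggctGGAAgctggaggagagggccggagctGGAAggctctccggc
Ski, chr4:155222536-155222785, minus strand: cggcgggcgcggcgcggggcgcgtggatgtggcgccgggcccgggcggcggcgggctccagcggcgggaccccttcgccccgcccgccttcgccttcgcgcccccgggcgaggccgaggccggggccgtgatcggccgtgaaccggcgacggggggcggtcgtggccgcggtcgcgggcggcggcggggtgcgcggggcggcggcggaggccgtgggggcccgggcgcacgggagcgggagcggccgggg
The full motif TTCNNNGAA, which reads the same on both strands, was in 0 of these 3 sequences, against 7.02% of all 32851 RefSeq promoter windows of the same length. TTCC or GGAA stood once in the Tgfb1 sequence, 4 times in that of Tgfbr2 and 0 times in that of Ski, and 93.4% of all windows held at least 1. The Ski sequence was 87.6% G or C and held 53 CG pairs, that of Tgfb1 75.2% and 21, and that of Tgfbr2 58.4% and 12, against medians of 52.4% and 6 over all windows. The absence of a match says only that these letters are not in these windows. Promoter windows were matched by symbol for 5 of the 10 genes.

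The ligand gene Tgfb1 had the largest ratio of the 7 genes, and a single strong region accounted for most of its height. Tgfb1 (GeneID 21803, chromosome 7, 25687002 to 25704996, plus strand) had a mean height of 47.5 in the IL-2 library and 6.5 in the control library over 2 regions. With a pseudocount of 5 added to each height, used for all ratios here, its log2 ratio was 2.19, above that of 82.5% of the listed genes. The region at position 25683840, 3162 bases upstream of Tgfb1, had a height of 82 in the IL-2 library and 5 in the control library (log2 ratio 3.12). The region at 25687328, 326 bases inside Tgfb1, had 13 in the IL-2 library and 8 in the control library (log2 ratio 0.47). The pair thus contrasts a high upstream region with a start-proximal one of low ratio. Own heights could be determined for 2464 of the 5703 regions, which leaves out many at genes with several regions. Among the 2464, the upstream region exceeded 96.4% in IL-2 height and the start-proximal one 15.0%. In control height the start-proximal region exceeded 95.2% of them, and in log2 ratio 1.10%.

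The strong region near Tgfb1 is not assigned to that gene alone. It lay inside the neighbouring gene B9d2, which encodes a protein of the base of the cilium, 2682 bases from the B9d2 start, and 8674 bases upstream of Tmem91. The B9d2 start was therefore nearer to it than the Tgfb1 start. Tmem91, with that region only, had heights of 82 in the IL-2 library and 5 in the control library, and it is through this gene that the heights of the 2 regions could be separated. B9d2 shares both regions with Tgfb1 and so has the same mean heights.

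Among the receptor genes, signal was at or below the middle of the table. Tgfbr2, which encodes the receptor that binds the ligand first (GeneID 21813, chromosome 9, 116087695 to 116175363, minus strand), had a mean height of 13.33 in the IL-2 library and 4 in the control library over 3 regions. Its log2 ratio of 1.03 was the lowest of the 7 genes and above that of 21.3% of the listed genes. Its regions lay 6461 bases upstream, 643 bases inside and 38579 bases inside the gene, at positions 116181824, 116174720 and 116136784. The highest peak was 17 and the other 2 regions had a mean of 11.5, so none of the 3 regions reached the table's median IL-2 height. The table does not determine which of the 3 held the highest peak. Tgfbr3, which encodes the co-receptor betaglycan (GeneID 21814, chromosome 5, 107106570 to 107289595, minus strand), had a single region at 107284320, 5275 bases inside this long gene. Its heights were 21 in the IL-2 library and 5 in the control library, both close to the medians of all genes (log2 ratio 1.38, above 46.8% of the listed genes).

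Tgfbr1, which encodes the kinase that phosphorylates SMAD2 and SMAD3, had no assigned region. The nearest region of the table to its RefSeq coordinates (chromosome 4, 47353222 to 47414926, GRCm38.p6) lay 42.9 kb away at 47310368, assigned to Col15a1, with 30 in the IL-2 library and 6 in the control library. Of the 3 receptor genes, Tgfbr1 thus had no region assigned, while Tgfbr2 had 3 and Tgfbr3 had 1. A region was listed for only 24.6% of protein-coding RefSeq genes within the length range of the genes described.

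**Figure D1:**
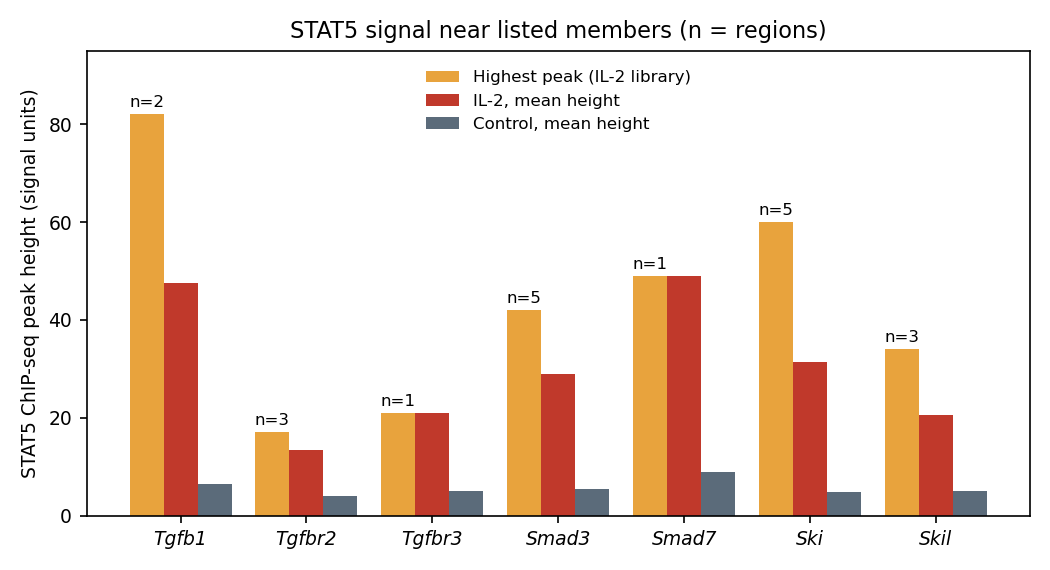
Peak heights in signal units (vertical axis) for the 7 listed genes, with the highest peak in the IL-2 library, the mean height in the IL-2 library and the mean height in the control library as bars from left to right, and n the number of regions (1 library per group, no error bars). The highest peaks range from 17 at Tgfbr2 to 82 at Tgfb1, and the control means from 4 at Tgfbr2 to 9 at Smad7.

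Of the SMAD genes that carry the signal, Smad3 was listed and Smad2 and Smad4 were not. Smad3 (GeneID 17127, chromosome 9, 63646767 to 63757994, minus strand) had 5 regions, whose mean was 29 in the IL-2 library and 5.4 in the control library (log2 ratio 1.71, above 64.8% of the listed genes). The highest peak was 42 and the other 4 regions had a mean of 25.75, so the signal was spread over several regions. All 5 lay inside the gene, at positions 63711968, 63722048, 63732768, 63738560 and 63740592, which is from 17402 to 46026 bases from the start. They spanned 28.6 kb, with gaps of 2032 to 10720 bases, and none was within 1 kb of the Smad3 start. None of them was assigned to another gene. The table gives only that they lie in the gene, not whether in an exon or an intron.

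Smad2, whose product acts beside SMAD3, and Smad4, whose product is the partner of both, lie on chromosome 18 with Smad7. The nearest region to Smad4 (73634790 to 73703791) was 60.8 kb away at 73574000, assigned to Mex3c, with 16 in the IL-2 library and 9 in the control library. The nearest to Smad2 (76241090 to 76311748) was 678.5 kb away at 75562560, assigned to Ctif. Only regions assigned to a listed gene could be searched, so a nearer region assigned to no gene would not be seen.

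Smad7, which encodes the inhibitory SMAD, had the highest mean IL-2 height of the 7 genes and also the highest control height. That mean is of a single region, and the highest peaks of Tgfb1 (82) and Ski (60) were higher. Its single region at 75371376 (GeneID 17131, chromosome 18, 75367365 to 75395934, plus strand) lay 4011 bases inside the gene and had 49 in the IL-2 library and 9 in the control library (log2 ratio 1.95, above 75.4% of the listed genes). The control height exceeded that of 98.6% of the listed genes, although no region was called there in the control library. Its IL-2 height exceeded 89.0% of them. The region was assigned to no other gene.

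The co-repressor genes Ski and Skil both had a region near the start and others inside the gene, and Ski had the higher signal. Ski (GeneID 20481, chromosome 4, 155154075 to 155222535, minus strand) had 5 regions, whose mean was 31.4 in the IL-2 library and 4.8 in the control library (log2 ratio 1.89, above 73.2% of the listed genes). The region 761 bases upstream, at 155223296, had 22 in the IL-2 library and 3 in the control library (log2 ratio 1.75). The other 4, at 155220256, 155217248, 155210368 and 155200800, lay from 2279 to 21735 bases inside the gene and had a mean of 33.75 in the IL-2 library and 5.25 in the control library. They included the highest peak, 60, so the strongest Ski region was inside the gene and not the one upstream of the start. The remaining 3 had a mean IL-2 height of 25. These 4 regions were also assigned to Gm19313, a short gene inside Ski on the same strand, and 3 of them were nearer to the start of Gm19313 than to that of Ski.

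Skil, which encodes the SKI relative SnoN (GeneID 20482, chromosome 3, 31095061 to 31122577, plus strand), had 3 regions, whose mean was 20.67 in the IL-2 library and 5 in the control library. Its log2 ratio of 1.36 was above that of 45.8% of the listed genes. One region, at 31095056, was placed 5 bases before the start, the closest to a start among the 20. The others lay 14539 and 18219 bases inside the gene, at 31109600 and 31113280. The highest peak was 34 and the other 2 regions had a mean of 14, and the table does not determine whether the region at the start held the peak. Positions in the table are coarse, since 5449 of 5703 were multiples of 16 bases.

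**Figure D2:**
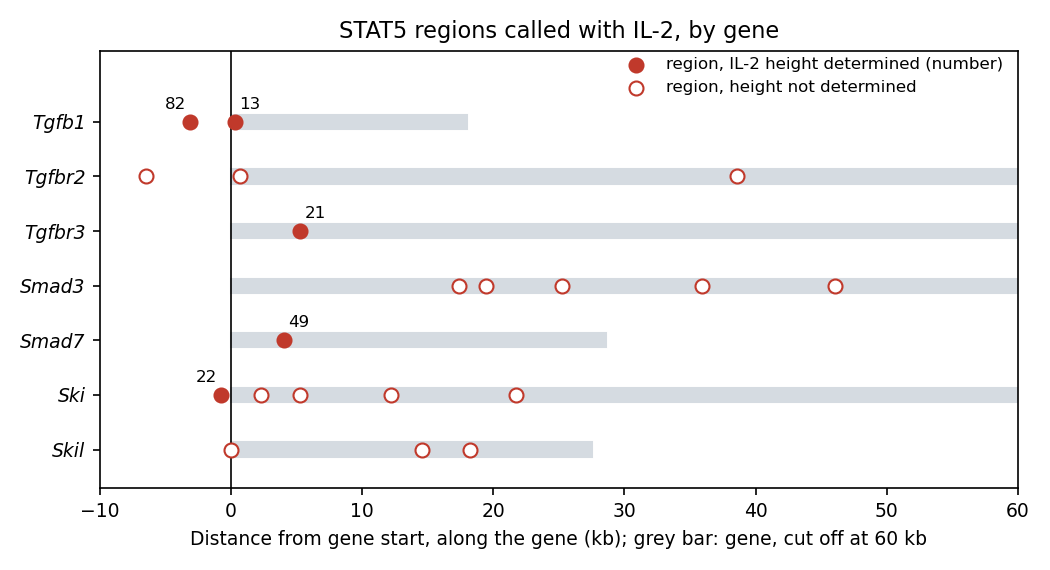
Regions called in the IL-2 library (circles) by distance from the gene start along each gene in kb (horizontal axis), with the gene as a grey bar that is cut off at 60 kb. Filled circles are regions whose IL-2 height the table determines, with that height, and open circles are regions whose own height it does not. The Smad3 regions begin 17402 bases inside the gene, whereas Tgfb1, Tgfbr2, Ski and Skil each have a region within 1 kb of the start.

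In order of log2 ratio the genes ran Tgfb1 (2.19), Smad7 (1.95), Ski (1.89), Smad3 (1.71), Tgfbr3 (1.38), Skil (1.36) and Tgfbr2 (1.03). Without replicates none of these genes can be said to differ from another. All 7 had a ratio of at least 2, but so did 83.8% of all listed genes, so this count does not set the pathway apart. Tgfb1 alone of the 7 reached a ratio of 4, as did 23.1% of all listed genes. The median log2 ratio was 1.71 for the 7 genes and 1.42 for all listed genes. Control heights were also multiplied so that both libraries had the same median. This shifted the median log2 ratio of all genes by -1.27, and the log2 ratios of Tgfbr2 (-0.24) and Skil (-0.0045) became negative. The other 5 were higher with IL-2, where the share over the whole table was 58.7%, but Tgfbr3 (0.014) was as near to no change as Skil. A ratio of 2 was then reached by 0 of the 7 and by 14.0% of the table. Equal medians take out a general shift by construction, so genes of low ratio turn negative whatever the true direction. The scaling of the libraries is not known, so this setting cannot decide the direction at genes of moderate signal.

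**Figure D3:**
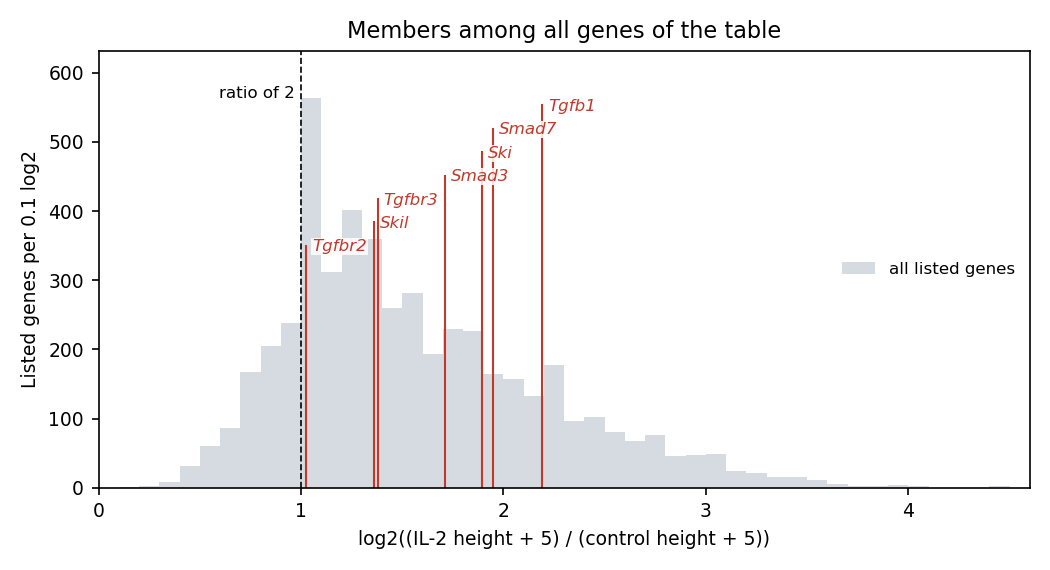
Number of listed genes (vertical axis) per 0.1 of log2 ratio, IL-2 over control with a pseudocount of 5 (horizontal axis), for all 4934 genes (grey bars), with the 7 genes as red lines whose heights only separate the names. Tgfbr2 at 1.03 lies just above the ratio of 2 and Tgfb1 at 2.19 lies farthest to the right.

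Several regions per gene were common among the 7 genes. Of these, 5 had several regions, 4 had at least 3 and 2 had at least 5, while 66.7% of all listed genes had 1, 15.6% had at least 3 and 4.42% had at least 5. Inside the gene lay 16 of the 20 regions (80%), upstream 4 and downstream 0, while 4169 of all 8337 assignments of regions to genes were inside the gene. Within 1 kb of their own gene's start were 4 of the 20 regions (20%), and within 5 kb were 7 (35%). Over all 5703 regions the shares were 27.5% and 46.0%, but these use the nearest start of any assigned gene. By that measure 4 of the 20 were still within 1 kb. The Ski region at 155210368, 1854 bases from the Gm19313 start, would then also count within 5 kb. Longer genes can hold more regions, and these differences were not tested. A region was listed for 7 of the 10 genes (70%), against 19.1% of all 21900 protein-coding RefSeq genes and 24.6% of the 9518 whose length lies between those of the shortest and longest of the 10. The 10 genes were chosen with earlier results of these data known, and expression in these cells was not considered. This share is therefore a description only.

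For each of the listed genes described, another gene of the table had the same or a near pair of heights. Likeness was the distance between the log2 heights plus 1 over the 2 libraries, among genes with the same number of regions. Genes sharing a region with the gene, such as B9d2 with Tgfb1, and the other genes described were left out. Tgfbr3 had the same pair of heights as 28 other genes of 1 region, Tgfbr2 the same as Rab8b, and Skil the same as Gm13546. The nearest to Tgfb1 was Btd, with 47.5 in the IL-2 library and 6 in the control library. The nearest to Smad3 was Glipr2, with 29.6 in the IL-2 library and 5.2 in the control library. Smad7 was nearest to Abcg1, with 50 in the IL-2 library and 9 in the control library, and Ski to Tnfrsf1b, with 32.2 in the IL-2 library and 5.2 in the control library. These distances rest on 2 libraries and carry no statement of shared control.

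Of 76 other genes of the TGF-beta pathway, 16 had a region (21.1%), near the 19.1% of all protein-coding genes. Neither share takes account of which genes are expressed in these cells, so no conclusion about the pathway is drawn from them. The ratio reached 2 for 13 of the 16, as it did for 83.8% of the whole table, and the median log2 ratio was 1.79. The list had no region at the other TGF-beta ligand genes Tgfb2 and Tgfb3, at the activin and BMP receptor genes of the list, or at Smad1, Smad5, Smad6 and Smad9. Once the medians were made equal, 11 of the 16 were above control, as did 58.7% of the whole table.

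The largest ratio of the wider pathway was that of Tgfb1i1, which encodes the adaptor Hic-5, with 55 in the IL-2 library and 3 in the control library at a region 8247 bases upstream that is also assigned to Armc5 and 9130023H24Rik. Tab2, which encodes a partner of the TAK1 kinase, had 46.5 in the IL-2 library and 3.5 in the control library over 2 regions, at 2757 bases upstream and 3355 bases inside. Hdac1, a histone deacetylase gene, had 33 in the IL-2 library and 3 in the control library at a region 378 bases upstream that is shared with Lck, a kinase gene of T cell receptor signalling. The regions of Tgfb1i1 and Hdac1 were thus shared with neighbouring genes, as the strong one of Tgfb1 was, while those of Tab2 were not. Trim33, whose product binds SMAD2 and SMAD3 and can ubiquitinate SMAD4, had 31 in the IL-2 library and 4 in the control library over 2 regions deep in the gene. Furin, which encodes the protease that cleaves the TGF-beta1 precursor, had 38 in the IL-2 library and 6.67 in the control library over 3 regions, with a highest peak of 64. Its downstream region, 17911 bases from the start, was also assigned to Fes. Zeb2, a SMAD-binding repressor gene, had 31.33 in the IL-2 library and 5 in the control library over 3 regions. These included regions downstream of the gene, 131359 and 136223 bases from its start. Traf6, a ubiquitin ligase gene, had 31 in the IL-2 library and 5 in the control library, also over 3 regions. Tab1 had 24 in the IL-2 library and 3 in the control library at a region 5826 bases upstream that is also assigned to Syngr1. The ratios of the remaining 8 genes were lower, down to a log2 ratio of 0.79 at Rnf111.

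**Figure D4:**
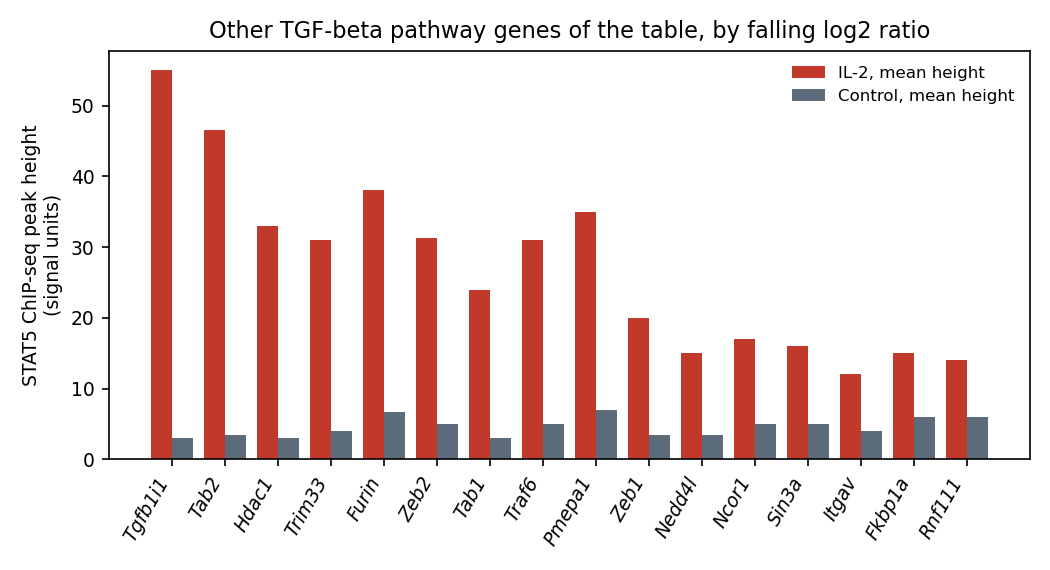
Mean peak heights in signal units (vertical axis) in the IL-2 library (red, left) and the control library (grey, right) for the 16 listed genes of the wider TGF-beta pathway, ordered by falling log2 ratio (1 library per group, no error bars). Control means lie between 3 and 7, while IL-2 means range from 12 at Itgav to 55 at Tgfb1i1.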

How the data were processed

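STAT5 ChIP-seq was analysed from the authors' deposited table of genes near binding regions, with 1 IL-2 library and 1 control library. Its unit is signal (peak height), and its flags of called intervals and numbers of intervals are other values, per the file headers. BWA and the mouse build mm10 are named, per the submitters' processing notes. The sources used here name no peak caller, read extension, depth or scaling, so counting error is unknown and no interval can be given.

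A pseudocount of 5 was added to each height before taking the log2 ratio of IL-2 to control, computed with Python 3.11.15 and pandas 2.3.3. Ratios of at least 2 were counted. Regions are those called in the IL-2 library, since the deposited means are over these: the mean times their number was whole for all genes in the IL-2 library and for all but 6, none described here, in the control library. Heights of single regions were solved from these products where they determine them, without those 6 genes and genes linked to them by regions, and the solver was tested on simulated data. Gene IDs of all 10 genes were found in a RefSeq table of GRCm38.p6, the assembly of mm10.

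No test was possible with 1 library per group. The genes and lists were chosen with earlier results of these data known. Named were all 10 genes, genes sharing their regions, and of the wider pathway the 8 of largest ratio and the 4 of most regions, ties going to the larger ratio, and the 4 of largest ratio of the genes known to respond to TGF-beta. The alternatives tried were a pseudocount of 1 or 10, a size rule of 1.5 or 4, scaling to equal medians, the highest peak, genes of higher signal and a distance of 5 kb.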

Additional observations from a re-analysis of the deposited data

How the results depend on the processing

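No paired analysis was possible because there was a single library on each side, and leaving out a library leaves no comparison. All 7 genes passed the 2-fold rule, 0 passed it after scaling to equal medians, and 1 passed the 4-fold rule. In the same 2 settings the 13 wider pathway genes became 3 and 4, and the 4133 of all listed genes became 689 and 1141. With genes of higher signal only, which leaves fewer genes, it was 2426 of 2467 over all genes, 9 of 9 in the wider pathway and 6 of 6 of the genes described. Most signal came from the IL-2 library, so this filter favours genes of high ratio. Neither these counts nor the median of those genes is an independent check. The 4-fold rule is stricter, and scaling takes out a general shift by construction. The median log2 ratio of the 7 genes, 1.71, became 0.31 with scaling, 2.23 with 1 as the pseudocount and 1.34 with 10. It was 1.96 when the highest peak stood for the IL-2 height and 1.80 for the 6 genes of higher signal. The highest peak is never below the mean and the control mean was kept, so that setting cannot lower a ratio. With scaling the sign turned for Tgfbr2 (-0.24) and Skil (-0.0045). Tgfbr2 also fell below a ratio of 2 with a pseudocount of 10 (log2 ratio 0.74). Regions within the distance of their own gene's start numbered 4 of 20 at 1 kb and 7 of 20 at 5 kb. Over all regions the share at 5 kb was 46.0%, measured to the nearest start of any assigned gene. Each of the 4 at 1 kb was nearer to the start of its own gene than to any other listed start. Read counts were not given, so what depth limits is unknown.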

Other observations

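Of 20 genes known to respond to TGF-beta in T cells, 13 were in the table (65%), against 19.1% of all protein-coding RefSeq genes. The 20 were chosen by name with earlier results of these data known, and expression in these cells was not considered. This share is therefore a description only. The ratio reached 2 for 9 of the 13, as it did for 83.8% of the whole table. The median log2 ratio of the 13 was 1.18, against 1.42 over all listed genes. Once the medians were made equal, 5 of the 13 were above control, as did 58.7% of the whole table. Foxp3, the gene of the regulatory T cell transcription factor, had 110 in the IL-2 library and 4 in the control library at a region 8764 bases upstream that is shared with other genes. Id3, an inhibitor of E proteins, had 81 in the IL-2 library and 8 in the control library at a downstream region. Runx1 had 30.5 in the IL-2 library and 5.17 in the control library over 6 regions inside the gene, and Gzmb, a granule protease gene, had 22 in the IL-2 library and 4.5 in the control library. Itgae, which encodes the integrin chain CD103 of tissue-resident CD8 T cells and is named after its value was seen, had 18 in the IL-2 library and 7 in the control library at 1 region 3837 bases inside the gene (log2 ratio 0.94).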
